A study of Mus musculus with 6 samples.

Results

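Transcripts of the lipid-sensing regulators were read out in RNA from CD8+ T cells of mouse spleen: the fatty acid receptors of the PPAR family, the oxysterol receptors LXR alpha (Nr1h3) and LXR beta (Nr1h2), their shared partners of the RXR family, the PGC1 coactivator gene Ppargc1b and the sterol-regulated factors Srebf1 and Srebf2. The genes were taken by name, 10 in all, and 9 of them matched 1 row each among 19323 genes of the deposited table; no row carried the identifier of Ppara, which is not analysed here. The MCDHFD group held 3 libraries from wild-type C57BL/6 mice given the diet that the labels call MCDHFD, and the ND group held 3 libraries from wild-type C57BL/6 mice given the diet that they call ND. Mice of both groups were 6 weeks old at the start and were fed for 7 weeks, and the labels tie the feeding to MASH, inflamed fatty liver. The labels do not say whether each library came from a separate animal or how the T cells were isolated, so p-values measure the spread between these libraries, which may be technical.

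PPARs, LXRs and RXRs are nuclear receptors, transcription factors that are switched by small lipids. PPARs and LXRs bind DNA as pairs with an RXR: PPARs respond to fatty acids and turn on their uptake, storage and oxidation, while LXRs respond to oxysterols and turn on cholesterol export, in macrophages above all. PGC1 coactivators bind such receptors and raise mitochondrial gene expression. SREBPs are held in the endoplasmic reticulum when sterols are plentiful and are cut and released when they are scarce. SREBP1 mainly drives fatty acid synthesis and SREBP2 mainly cholesterol synthesis and uptake.

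The 6 libraries held 13188812 to 15482458 recovered reads, and the values below are read counts scaled by 1 factor per library (normalized counts). The defining genes of the labelled cells were present in both diets but lower after MCDHFD: Cd8a averaged 5264 ± 458 normalized counts in MCDHFD libraries and 13784 ± 350.4 in ND libraries (SD, n = 3 each), and 19 of 19 CD8 T cell genes passed the test as lower. Of all 13430 tested genes, 28.1% passed as lower and 30.3% as higher, and the counts of each cell type here stand against these shares. Summed as a share of all counts, these 19 genes made up 0.431% to 0.494% of MCDHFD libraries and 0.883% to 0.893% of ND libraries. The 20 genes of red pulp macrophages and monocytes made up 1.82% to 2.20% of MCDHFD libraries and 0.408% to 0.496% of ND libraries, and 19 of the 20 passed as higher, with none at 0. Genes of neutrophils (12 of 14 tested genes higher, none lower), erythroid cells (14 of 14 higher) and plasma cells (6 of 10 higher, 1 lower) were mostly higher too, while those of dendritic cells (12 of 15 lower, 2 higher) and B cells (10 of 12 lower, 1 higher) were mostly lower. Elane, Mpo, Prtn3 and Ctsg of the neutrophil list reached a mean of 10 in MCDHFD alone, and Cd209a and Siglech of the dendritic cell list in ND alone, so these had to differ. Without them, 8 of 10 neutrophil genes were higher and 0 lower, and 10 of 13 dendritic cell genes were lower and 2 higher. In bulk RNA, fewer cells of a type and less RNA per cell cannot be told apart. The part of these other cells in the results below was not tested.

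Rxra, Pparg, Ppargc1b, Srebf1, Ppard and Rxrb were higher after MCDHFD, and Srebf2 was lower; the 2 LXR genes did not pass the test. A gene was called when a limma fit on log2(value + 1) over all tested genes gave a Benjamini-Hochberg adjusted p under 0.05. The 6 higher and 1 lower of the 9 genes stand against 58.4% of the 13430 tested genes called in either direction, 30.3% higher and 28.1% lower. The diets did not overlap in these same 7 genes, and they did not overlap in 65.4% of all tested genes (33.2% higher, 32.3% lower). The median log2 fold change of the 9 genes was 0.32, and that of all tested genes was 0.00. Most tested genes were thus called in the same libraries, and the count of regulators is read against that share.

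**Figure D1:**
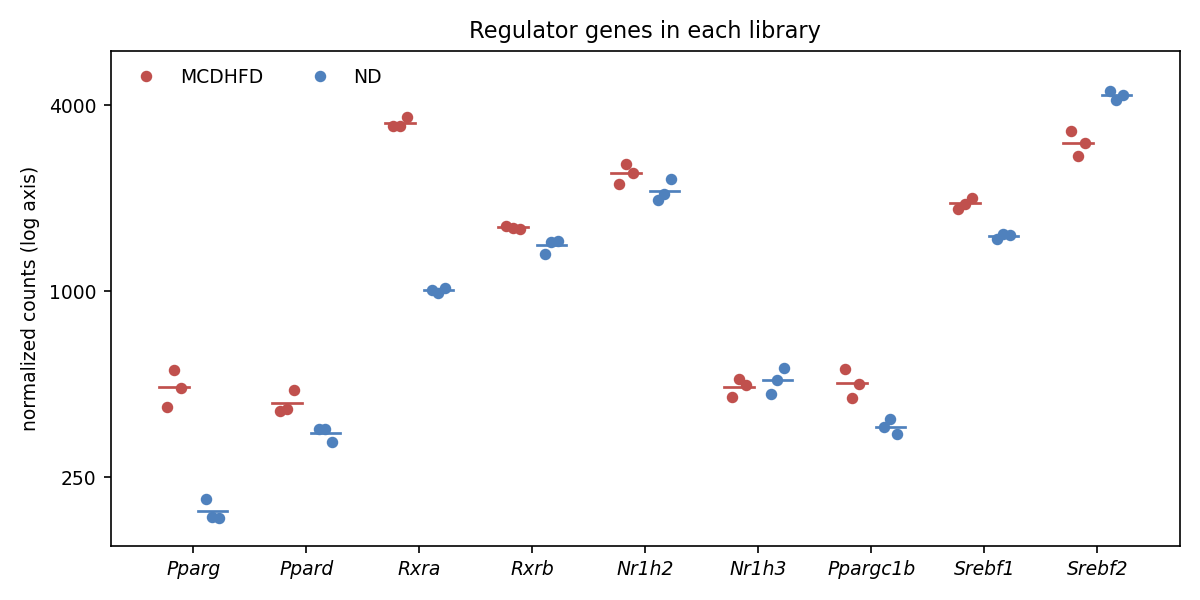
Normalized counts (log axis) of the 9 regulator genes in each library, MCDHFD left and ND right for each gene; points are libraries and bars are means of 3. The MCDHFD points of Rxra (3415 to 3659.8) lie far above its ND points (986 to 1023), the Nr1h3 points overlap, and the MCDHFD points of Srebf2 lie below its ND points.

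Rxra changed more than any other of the 9 genes. Rxra encodes RXR alpha, an obligate partner of PPARs and LXRs that also pairs with retinoic acid, thyroid hormone and vitamin D receptors. It stood at 3415, 3424 and 3659.8 normalized counts in MCDHFD libraries, against 1007, 986 and 1023 in ND libraries. The lowest MCDHFD library was above the highest ND library by a wide margin, and the libraries of each diet lay close together. The means were 3499.5 ± 139 in MCDHFD and 1006 ± 18.5 in ND (SD, n = 3 each), a 3.48-fold difference (log2 fold change 1.80, SE 0.05, limma adjusted p = 9.09e-08). Of all tested genes, 6.62% had a higher log2 fold change. Rxrb, the sister receptor that most tissues express, differed far less. It stood at 1624, 1604 and 1594 normalized counts in MCDHFD libraries, against 1324, 1446 and 1450.0 in ND libraries. The diets did not overlap, but the lowest MCDHFD library was close to the highest ND library (log2 fold change 0.19, SE 0.06, limma adjusted p = 0.0165). The call of Rxrb ended under quantile scaling (log2 fold change 0.11, limma adjusted p = 0.128) and without ND replicate 1 (0.15, limma adjusted p = 0.0506), within a range of limma, edgeR and DESeq2 adjusted p from 3.12e-07 to 0.128 over its alternatives. No row of the table matched Rxrg, the third RXR gene, which is not analysed here.

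The balance of the RXR pair turned over. A ratio of 2 genes within 1 library does not depend on a scaling factor applied to the whole library, and gene length cancels in its difference between diets. The log2 ratio of Rxra to Rxrb was 1.07, 1.09 and 1.20 in MCDHFD libraries and -0.39, -0.55 and -0.50 in ND libraries. It was positive in every MCDHFD library and negative in every ND library, a difference of 1.60 (SE 0.06). A two-sided exact permutation test gave p = 0.1, the smallest that 3 against 3 libraries allow, for this and for each of the other 3 pairs (p = 0.1 adjusted over the 4 ratios), so no pair could reach 0.05 by that test. Per kilobase of exon (GENCODE M21), Rxra made up 61.3% ± 1.11 of the RXR pair in MCDHFD libraries and 34.2% ± 1.26 in ND libraries, and the summed level of the pair was 1045 ± 22.6 in MCDHFD and 538 ± 18.2 in ND (normalized counts per kb; SD, n = 3 each).

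**Figure D2:**
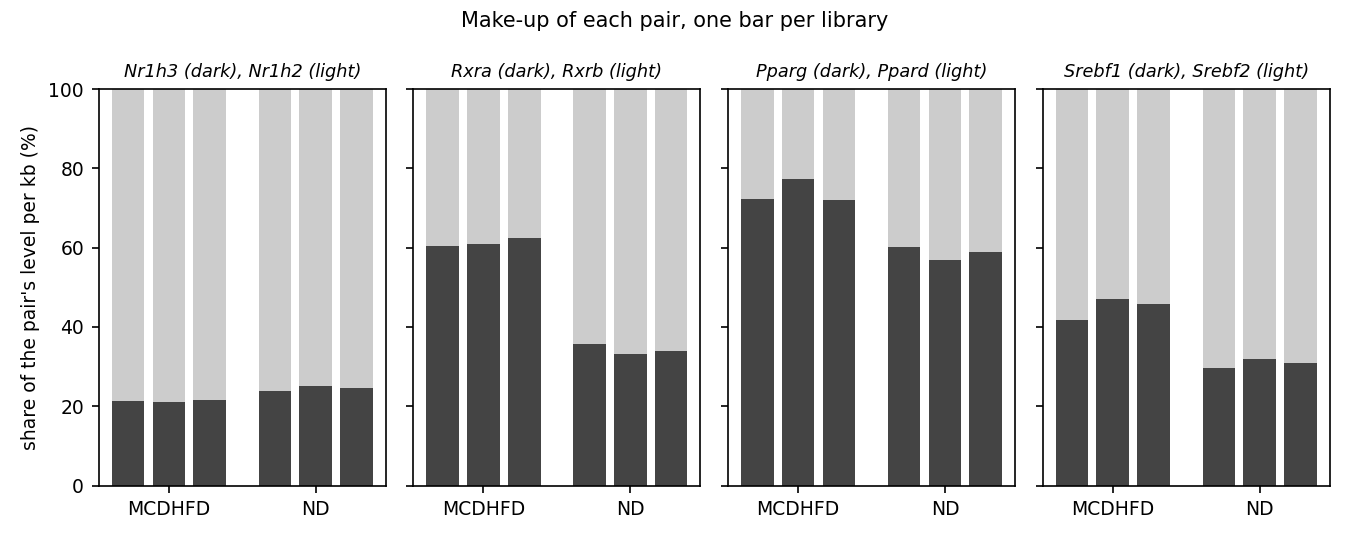
Share of each pair's level per kilobase of exon, 1 bar per library, with the 3 MCDHFD bars left of the 3 ND bars; dark and light parts are the 2 genes named above each panel. The dark Rxra part averages 61.3% in MCDHFD and 34.2% in ND, the Nr1h3 part averages 21.4% in MCDHFD and 24.5% in ND, and the Pparg and Srebf1 parts are larger in MCDHFD.

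Both measured PPAR genes were higher after MCDHFD, Pparg by more. Pparg encodes PPAR gamma, known for fat cell formation and for lipid handling in macrophages, among them those of the spleen. It stood at 421, 557 and 485 normalized counts in MCDHFD libraries, against 212, 186 and 184 in ND libraries. All MCDHFD libraries lay above all ND libraries, with MCDHFD replicate 2 the highest. The means were 488 ± 68.3 in MCDHFD and 194 ± 15.9 in ND (SD, n = 3 each), a 2.51-fold difference (log2 fold change 1.32, SE 0.12, limma adjusted p = 2.13e-05). Fat cells are the tissue best known for Pparg, and of 10 fat cell genes 6 were in the table. The lipase gene Lipe, which other cells use as well, was the only one to reach a mean of 10 over the libraries, and it was higher, at 369 normalized counts in MCDHFD and 292 in ND (log2 fold change 0.33, limma adjusted p = 0.00943). The adipokine gene Adipoq was at 0, 0 and 2.24 normalized counts in MCDHFD libraries and at 0 in all 3 ND libraries, at or under a floor of 3 reads per library. Ppard encodes PPAR delta, a broadly expressed receptor linked to fatty acid oxidation. It stood at 408, 415 and 479.9 normalized counts in MCDHFD libraries, against 357, 358 and 326 in ND libraries. The diets did not overlap, and the gap between them was small (log2 fold change 0.32, SE 0.09, limma adjusted p = 0.0149). Its call ended without MCDHFD replicate 3 (0.25, limma adjusted p = 0.0556) and without ND replicate 3 (0.28, limma adjusted p = 0.0554), and its adjusted p over all alternatives ran from 2.52e-06 to 0.0556.

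The log2 ratio of Pparg to Ppard was 0.04, 0.43 and 0.02 in MCDHFD libraries and -0.75, -0.94 and -0.82 in ND libraries. The difference of 0.998 (SE 0.14) was again one between groups that did not overlap. Per kilobase, Pparg made up 73.9% ± 2.99 of the pair in MCDHFD and 58.7% ± 1.67 in ND (SD, n = 3 each), and the summed level of the pair was 1.99-fold higher in MCDHFD.

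**Figure D3:**
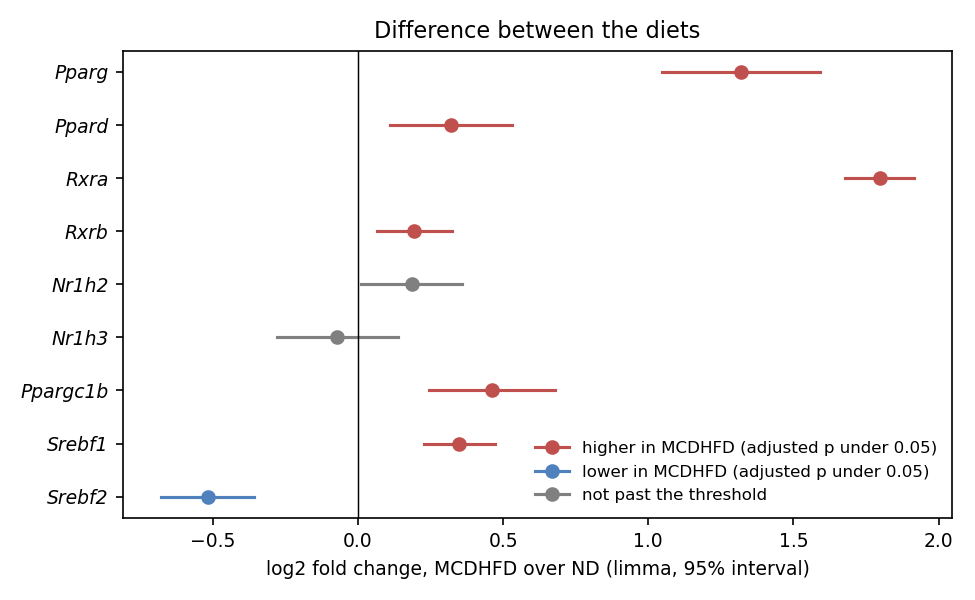
Log2 fold change of MCDHFD over ND for each of the 9 genes, with the 95% interval of the limma fit. Rxra (1.80) and Pparg (1.32) stand apart from the other called genes, whose values lie between -0.52 and 0.46, and the interval of Nr1h3 spans 0.

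The LXR genes showed no called difference. Nr1h3 encodes LXR alpha, prominent in macrophages and liver. It stood at 455, 518 and 498 normalized counts in MCDHFD libraries, against 466, 518 and 563 in ND libraries. The libraries of the diets were interleaved (log2 fold change -0.07, 95% interval -0.28 to 0.14, limma adjusted p = 0.535). Nr1h2 encodes LXR beta, which most tissues express. It stood at 2220.2, 2586 and 2409 normalized counts in MCDHFD libraries, against 1979, 2066 and 2301 in ND libraries. MCDHFD replicate 1 lay below ND replicate 3, so the diets overlapped (log2 fold change 0.19, 95% interval 0.01 to 0.36 before adjustment, limma adjusted p = 0.0655). Nr1h2 passed in 5 of 17 alternatives, always as higher, among them those without MCDHFD replicate 1 (0.24, limma adjusted p = 0.0266) and without ND replicate 3 (0.25, limma adjusted p = 0.0288), over a range of adjusted p from 2.78e-06 to 0.201. The log2 ratio of Nr1h3 to Nr1h2 was -2.29, -2.32 and -2.27 in MCDHFD libraries and -2.08, -2.00 and -2.03 in ND libraries. It was lower in every MCDHFD library than in every ND library, by 0.26 (difference -0.26, SE 0.03). Per kilobase, Nr1h3 made up 21.4% ± 0.267 of the pair in MCDHFD and 24.5% ± 0.579 in ND (SD, n = 3 each).

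LXR target genes were higher in the same libraries in which the LXR genes themselves were not called. Of 14 tested targets, 12 rose (85.7%) and 2 fell (14.3%), against 30.3% and 28.1% of all tested genes, with a median log2 fold change of 2.25 against 0.00 for all tested genes. Apoc1 (4.22) and Apoe (3.97), genes of lipoprotein components, and Pltp (3.18), of a phospholipid carrier, rose the most among those with a mean of at least 10 in both diets. Apoc2, another lipoprotein gene, stood at 67.8, 105 and 115 normalized counts in MCDHFD libraries against 5.87, 8.76 and 2.97 in ND libraries, so it passed the filter on low values through MCDHFD alone. Without it, 11 of 13 rose and 2 fell. The cholesterol exporter gene Abca1 averaged 6252 normalized counts in MCDHFD and 1313 in ND (log2 fold change 2.26), and Mylip, a ubiquitin ligase gene, averaged 2379 in MCDHFD and 1220 in ND (0.96). The lower targets were Scd1 (-0.59), a desaturase gene that SREBP1 also drives, and Arl4c (-0.36), which encodes a small GTPase. Of the 14 targets, 1 (Mertk) is also on the macrophage list, and macrophages are known to express several of the others.

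Srebf1 is itself an LXR target, and the promoter windows of Srebf1 and Abca1 are shown because they share a stretch of letters. Windows of 300 bases, from 250 before to 50 after an annotated start (RefSeq, GRCm38.p6), were searched on both strands, 15 of them from 8 of the regulators. The longest run that any of the Srebf1 windows shares with the Abca1 window is TAGTAACCCCGGC, of 13 bases, which overlaps the LXR elements known in these promoters. It was found in 3 of 32851 windows (0.00913%), among them the Srebf1 and Abca1 windows it was taken from, so this count is no test of the run. The shared run lies from base -124 to -112 before a start of Srebf1 in the window chr11:60210422-60210721 on the minus strand, and from -60 to -48 before that of Abca1 in the window chr4:53159846-53160145, also on the minus strand. Capitals mark this run, GC boxes (GGGCGG, in 35.7% of all windows) and CCAAT boxes (CCAAT, in 37.4%), each on either strand, and no motif overlaps another in these windows.
Srebf1: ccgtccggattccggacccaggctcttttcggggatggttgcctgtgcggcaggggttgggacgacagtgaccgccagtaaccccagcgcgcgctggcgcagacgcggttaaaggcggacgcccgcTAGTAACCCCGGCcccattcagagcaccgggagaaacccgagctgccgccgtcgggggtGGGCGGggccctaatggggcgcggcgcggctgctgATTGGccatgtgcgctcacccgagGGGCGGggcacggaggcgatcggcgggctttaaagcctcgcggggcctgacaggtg
Abca1: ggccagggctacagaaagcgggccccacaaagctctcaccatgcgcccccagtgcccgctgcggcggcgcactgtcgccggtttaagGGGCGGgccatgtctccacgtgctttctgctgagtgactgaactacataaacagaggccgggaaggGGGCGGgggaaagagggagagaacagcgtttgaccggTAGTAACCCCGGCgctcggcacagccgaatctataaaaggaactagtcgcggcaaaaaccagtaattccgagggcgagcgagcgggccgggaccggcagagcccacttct
A match describes letters, not bound protein. The exact repeats AGGTCANAGGTCA (DR1, the PPAR type, in 0.0396% of all windows) and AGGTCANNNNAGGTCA (DR4, the LXR type, in 0.0152%) were in none of the 15 windows, and the half-site AGGTCA (in 16.3%) was in 3 of them. Elements that depart from these letters were not searched for, so their absence is not shown.

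The 2 SREBP genes moved in opposite directions. Srebf1 stood at 1848, 1918 and 2002 normalized counts in MCDHFD libraries, against 1476, 1530.2 and 1518 in ND libraries. All MCDHFD libraries were higher (log2 fold change 0.35, SE 0.05, limma adjusted p = 0.000518). Srebf2 stood at 3291, 2740.1 and 3025 normalized counts in MCDHFD libraries, against 4461, 4152 and 4324 in ND libraries. All MCDHFD libraries were lower, with MCDHFD replicate 2 the lowest, and the means were 3019 ± 276 in MCDHFD and 4312 ± 155 in ND (SD, n = 3 each; log2 fold change -0.52, SE 0.07, limma adjusted p = 0.000267). The log2 ratio of Srebf1 to Srebf2 was -0.83, -0.51 and -0.59 in MCDHFD libraries and -1.59, -1.44 and -1.51 in ND libraries. The ratio was higher in every MCDHFD library, by 0.87 (SE 0.11). Per kilobase, Srebf1 made up 44.9% ± 2.83 of the pair in MCDHFD and 30.9% ± 1.15 in ND (SD, n = 3 each). The exons of Srebf1 share 109 bases with Rai1 on the opposite strand, and the labels do not say whether the counting used strand.

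Srebf2 was lower in every alternative but 1 (log2 fold change -0.58 to -0.45). In that one, libraries were rescaled so that the 19 CD8 T cell genes had 1 common mean log2 value, which by construction raises every log2 fold change by the same amount and leaves the differences between genes as they were. The median of all tested genes became 1.03, the split of calls over all genes became 11214 higher and 441 lower, in place of 4065 higher and 3772 lower, and all 9 regulators were called higher. Srebf2 then had a log2 fold change of 0.51 and Nr1h3 one of 0.96, both below that median, while Nr1h2 (1.21), Rxrb (1.22), Ppard (1.35), Srebf1 (1.38), Ppargc1b (1.49), Pparg (2.35) and Rxra (2.83) were above it. Of the targets, 14 of 14 for LXR (median 3.27) and 23 of 26 for PPAR (1.64) were then called higher and 0 lower.

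Genes of sterol synthesis and uptake, which SREBP2 drives, were lower in the same libraries. Of 24 tested genes, 14 fell (58.3%) and 2 rose (8.33%), against 28.1% and 30.3% of all tested genes, with a median log2 fold change of -0.37. The count of higher genes was 1 under quantile scaling, without MCDHFD replicate 1 and without ND replicate 2. Nsdhl (-1.16), Fdft1 (-0.90) and Cyp51 (-0.86), all enzymes of cholesterol synthesis, fell. The 2 that rose were Mvd (0.41, limma adjusted p = 0.0159) and the desaturase gene Fads1 (0.77), which is counted again below among genes of fatty acid synthesis. After the rescaling to equal CD8 T cell genes, 20 of the 24 were called higher and 0 lower. Of all 13430 tested genes, 11214 were then called higher and 441 lower, so most genes rose in that setting. The 24 genes had a median of 0.66, below the 1.03 of all tested genes.

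Srebf2 and the sterol synthesis gene Hmgcs1 are shown as promoters because both hold the core TCACNCCA of a sterol response element, found in 4.36% of all windows. In the window of Srebf2, the only one of the 15 with this core, at chr15:82147019-82147318 on the plus strand, it runs from base -162 to -155. In that of Hmgcs1, at chr13:119690101-119690400 on the plus strand, it runs from -137 to -130. Hmgcs1 averaged 598 normalized counts in MCDHFD and 759 in ND (log2 fold change -0.34, limma adjusted p = 0.00160). Capitals mark this core, the half-site AGGTCA, GC boxes and CCAAT boxes, on either strand.
Srebf2: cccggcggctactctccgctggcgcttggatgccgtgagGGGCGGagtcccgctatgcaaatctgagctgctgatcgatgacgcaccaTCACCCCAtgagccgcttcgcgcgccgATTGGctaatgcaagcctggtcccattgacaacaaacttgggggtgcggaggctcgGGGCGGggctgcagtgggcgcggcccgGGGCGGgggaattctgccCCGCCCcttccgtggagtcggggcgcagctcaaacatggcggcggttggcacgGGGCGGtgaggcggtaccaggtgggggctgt
Hmgcs1: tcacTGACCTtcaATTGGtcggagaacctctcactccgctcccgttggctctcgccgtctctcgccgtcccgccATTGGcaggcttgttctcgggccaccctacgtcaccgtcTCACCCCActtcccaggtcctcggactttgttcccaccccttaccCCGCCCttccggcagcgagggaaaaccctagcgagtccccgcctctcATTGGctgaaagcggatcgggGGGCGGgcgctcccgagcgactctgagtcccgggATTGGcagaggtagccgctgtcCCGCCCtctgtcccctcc
The window of Srebf2 also holds 5 GC boxes and 1 CCAAT box.

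Of 14 tested genes of fatty acid synthesis, which SREBP1 drives, 7 rose (50%) and 3 fell (21.4%), against 30.3% and 28.1% of all tested genes, with a median log2 fold change of 0.27. Fads2 averaged 75.2 normalized counts in MCDHFD and 8.55 in ND. It passed the filter on low values through MCDHFD alone, so it had to differ. Without it, 6 of 13 rose and 3 fell, with a median of 0.19. The acetyl-CoA carboxylase gene Acacb (1.53), Gpam (1.01), the first enzyme of glycerolipid synthesis, and Fads1 (0.77) rose, and Scd1 fell. Fasn, the fatty acid synthase gene, averaged 3869 normalized counts in MCDHFD and 3387 in ND (0.19, limma adjusted p = 0.0308). Of 10 genes that hold, cut or degrade SREBPs, 5 rose (50%) and 1 fell (10%), among them Mbtps2 (0.66), the site-2 protease gene, and Scap (0.22), which escorts SREBPs to the Golgi. Rnf145 (-0.21), a ubiquitin ligase gene of this control, fell. Under quantile scaling 3 of the 10 rose. After the rescaling to equal CD8 T cell genes, all 14 genes of fatty acid synthesis were called higher, as were all 10 of these processing genes (median 1.24). Both counts stand against 11214 higher and 441 lower among all 13430 tested genes at that setting.

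PPAR target genes rose more often than they fell. Of 26 tested targets, 17 rose (65.4%) and 3 fell (11.5%), against 30.3% and 28.1% of all tested genes, with a median log2 fold change of 0.61. Ucp3, a mitochondrial carrier, averaged 291 ± 34.2 normalized counts in MCDHFD and 17.7 ± 6.53 in ND (SD, n = 3 each; log2 fold change 4.03), and Fabp4 (3.67), Acot1 (3.29) and Plin2 (2.88), of fatty acid transport, acyl-CoA cleavage and lipid droplets, rose as well. Cpt1a, the gate of fatty acids into mitochondria, averaged 4029 in MCDHFD and 1974 in ND (1.04). The 3 lower targets were Acaa1b (-0.84), Acaa1a (-0.79) and Hadha (-0.19), genes of fatty acid breakdown, and Acaa1a and Acaa1b are similar copies whose counts could be split. Pdk4, a classic target, stayed below the filter with 13.8 normalized counts in MCDHFD and 0 in all ND libraries.

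**Figure D4:**
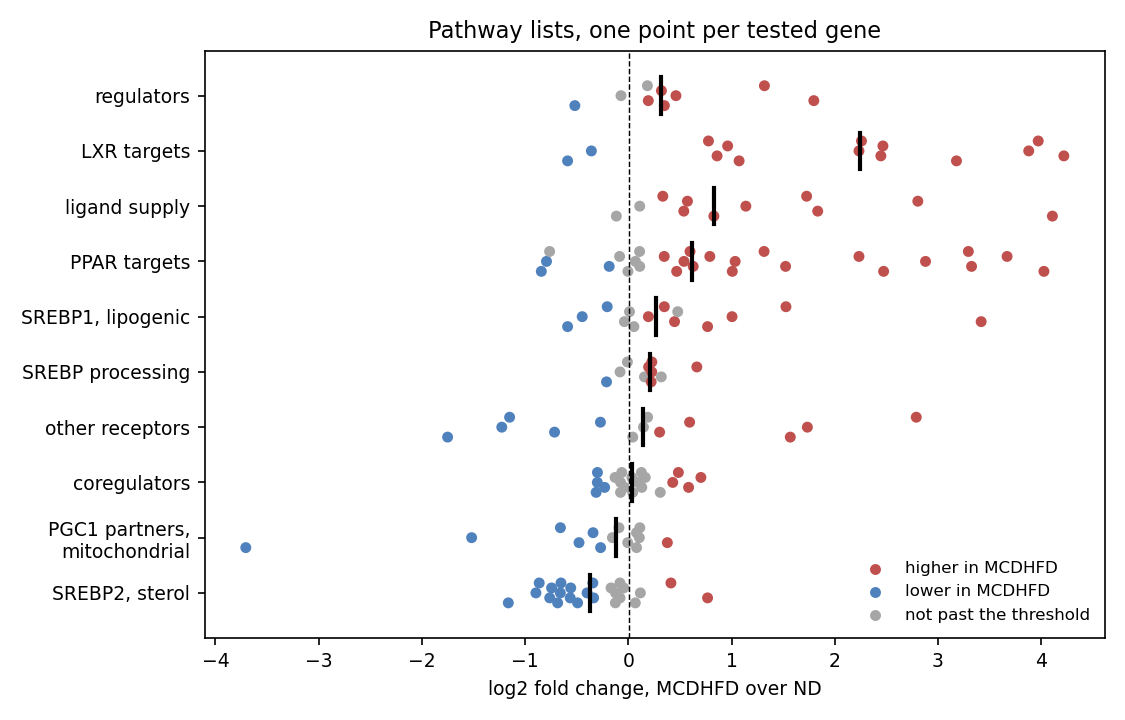
Log2 fold change (MCDHFD over ND) of each tested gene of the regulators and of 9 pathway lists, coloured by call, at the deposited scaling; thick bars are list medians and the dashed line is the median of all tested genes (0.00). The LXR target list has a median of 2.25 and the sterol list one of -0.37, while the coregulator list is centred near the dashed line.

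Ppargc1b, the PGC1 beta gene, was the expressed member of the pair Ppargc1a and Ppargc1b. It stood at 558, 452 and 500.0 normalized counts in MCDHFD libraries, against 363, 384 and 345 in ND libraries. All MCDHFD libraries were higher (log2 fold change 0.46 with an SE of 0.10, limma adjusted p = 0.00284), and the call held in all 17 alternatives. Ppargc1a, the PGC1 alpha gene of muscle and brown fat, held 1 to 7 reads per library. It averaged 3.09 ± 1.27 normalized counts in MCDHFD and 4.58 ± 3.15 in ND (SD, n = 3 each), below the filter for testing. The related gene Pprc1, counted among the coactivators below, was expressed as well. It averaged 1765 in MCDHFD and 1652 in ND and was not called (log2 fold change 0.10, limma adjusted p = 0.218). Of 14 tested partners and mitochondrial factors, 1 rose (7.14%) and 6 fell (42.9%), against 30.3% and 28.1% of all tested genes, with a median log2 fold change of -0.12. Esrra, the orphan receptor that PGC1 coactivates, rose (0.38). Tfb1m (-1.52), a mitochondrial rRNA methylase gene, and Polg (-0.66) and Polrmt (-0.48), the mitochondrial DNA and RNA polymerase genes, fell. Perm1, a gene that PGC1 factors induce in muscle, passed the filter on low values through its ND libraries alone, with 3.76, 0 and 3.36 normalized counts in MCDHFD libraries against 28.4, 35.0 and 42.6 in ND libraries, so that it had to differ, and no fold change is given. Without it, 1 of 13 rose and 5 fell. After the rescaling to equal CD8 T cell genes, 12 of the 14 were called higher and 2 lower, with a median of 0.91, below that of all tested genes. Of all 13430 tested genes, 11214 were called higher and 441 lower at that setting.

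Of 20 tested coactivators and corepressors, 4 rose, 4 fell and 12 were not called, or 20% in each direction, both below the 30.3% and 28.1% of all tested genes, with a median log2 fold change of 0.04. The receptor coactivator Ncoa1 (0.70), the arginine methylase Carm1 (0.58), Lpin1 (0.49), a phosphatase that also coactivates, and the corepressor Nrip1 (0.43) rose. The lower genes were Ncoa3 (-0.30), Ep300 (-0.31), the corepressor Ncor1 (-0.30) and Tbl1x (-0.23). After the rescaling to equal CD8 T cell genes all 20 were called higher, with a median of 1.07, close to that of all tested genes. At that setting 11214 of all 13430 tested genes were called higher and 441 lower. Of 13 further receptors, most of them possible RXR partners, 5 rose and 5 fell (38.5% each way), or 10 rose and 0 fell after that rescaling. Without ND replicate 2, 3 of 12 fell. The haem-sensing repressor Nr1d1 (2.79) and the thyroid hormone receptor gene Thrb (1.73) rose, while Nr4a2 (-1.23), an orphan receptor induced in activated T cells, and the retinoic acid receptor gene Rarg (-1.15) fell. Rara, another retinoic acid receptor gene, averaged 1309 normalized counts in MCDHFD and 1268 in ND and was not called (limma adjusted p = 0.667).

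Genes that make or deliver ligands for these receptors rose in 9 of 11 tested (81.8%, against 30.3% of all tested genes) and fell in 0, with a median log2 fold change of 0.83. With no filter on low values 3 of 18 fell, and 1 of 12 fell without MCDHFD replicate 2, MCDHFD replicate 3 or ND replicate 3. Below the filter, Aldh1a2, another retinoic acid enzyme gene, averaged 1.40 normalized counts in MCDHFD and 18.2 in ND. Its ND libraries held 27.4, 24.3 and 2.97, so ND replicate 3 lay close to the highest MCDHFD library (2.24). The oxysterol hydroxylase gene Cyp7b1 averaged 0.373 in MCDHFD and 9.17 in ND. Aldh1a1, which makes retinoic acid, averaged 194 ± 44.9 normalized counts in MCDHFD and 10.8 ± 4.85 in ND (SD, n = 3 each; log2 fold change 4.11). Pnpla2 (1.83) and Lipa (0.83), lipases that free fatty acids from droplets and lysosomes, and the fatty acid carrier gene Fabp5 (1.14) rose too. The oxysterol-making enzyme Cyp27a1 averaged 481 in MCDHFD and 324 in ND (0.57), while Ch25h, another, averaged 0.655 in MCDHFD and was at 0 in all ND libraries.

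Per kilobase of exon, the order of the regulators changed mainly through Rxra. In MCDHFD libraries the order of mean levels was Nr1h2, Rxra, Srebf2, Rxrb, Srebf1, Nr1h3, Pparg, Ppargc1b and Ppard, between 717 ± 54.5 and 57.8 ± 5.26 normalized counts per kb. In ND libraries it was Nr1h2, Srebf2, Rxrb, Srebf1, Nr1h3, Rxra, Ppargc1b, Pparg and Ppard, between 631 ± 49.6 and 46.2 ± 2.46 (SD, n = 3 each). Rxra ranked 2 of 9 in MCDHFD and 6 of 9 in ND, at 641 ± 25.4 and 184 ± 3.40 normalized counts per kb. Neighbours whose libraries overlapped were Nr1h2 and Rxra, Srebf2 and Rxrb, and Nr1h3 and Pparg in MCDHFD, and Nr1h2 and Srebf2, and Nr1h3 and Rxra in ND. These levels rest on the exon lengths of GENCODE M21, which may not be the annotation the authors counted on.

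Genes whose profile over the 6 libraries lay nearest to that of Rxra, by Euclidean distance between log2 values centred per gene, were Litaf (distance 0.10, log2 fold change 1.79), Naip6 (0.11, 1.74) and Rab20 (0.13, 1.76). Those nearest to Srebf2 were Rnf113a2 (0.06, -0.50), Plec (0.07, -0.53) and Ptprc (0.07, -0.50), the last the gene of the leukocyte antigen CD45. With 6 libraries in 2 groups, such nearness mostly reflects a like difference between the diets, and Naip6 has similar family copies.

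In mm10 coordinates (GENCODE M21), Rxra (ENSMUSG00000015846) lies on chromosome 2 from 27676440 to 27762957 on the plus strand, Pparg (ENSMUSG00000000440) on chromosome 6 from 115360951 to 115490399 on the plus strand, Srebf1 (ENSMUSG00000020538) on chromosome 11 from 60199089 to 60222581 on the minus strand, and Srebf2 (ENSMUSG00000022463) on chromosome 15 from 82147181 to 82205379 on the plus strand. All 9 genes are annotated as protein-coding, and 7 of them share no exon base with another gene of the table.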

How the data were processed

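The deposited table holds normalized counts, a signal that the authors made from read counts per gene, per the file headers. The submitters' processing notes name the build mm10; which aligner, annotation and counting mode (strand included) they used is not stated. In each of the 6 libraries 100% of values were whole multiples, at a tolerance of 0.01, of the value of 1 read, and the product of that value and a DESeq2 size factor computed here from the recovered reads lay between 0.999997 and 1. Libraries held 13188812 to 15482458 such reads. Same-diet pairs differed by chi-square values of 6.46 to 12.3 per degree of freedom, so no pair agreed within sampling noise.

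Symbols were matched for 19202 genes. Genes with a mean of at least 10 were tested (13430) on log2(value + 1), a scale that understates the change of low genes, with limma 3.58.1 (intensity trend, diet as the only term, R 4.3.3) and Benjamini-Hochberg adjustment at 0.05 over all of them. The procedure was tested on simulated data. Ratios used two-sided exact permutation tests over 20 arrangements. The planned ratio of Ppara to Ppard had no value. Leaving out list genes with a mean under 10 in 1 diet was added after seeing the data. Other alternatives were other pseudocounts, filters, scalings and weights, a replicate block, each library left out, and edgeR 4.0.16 and DESeq2 1.42.0 on recovered reads.

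The regulators and lists were chosen with earlier results of these data known. Named genes are the regulators, up to 4 called genes per pathway list by size of change with a mean of at least 50, up to 3 genes of highest mean per cell type list, and the 3 nearest profiles to the highest and lowest called regulator. Abca1, Mylip, Arl4c, Hmgcs1, Fasn, Rnf145, Cpt1a, Acaa1a, Acaa1b, Hadha, Pdk4, Perm1, Aldh1a2, Cyp7b1, Ncoa3, Ep300, Ncor1, Tbl1x, Rara, Cyp27a1, Ch25h, Mertk and Adipoq, and the sterol core and the shared run, were chosen after their values or windows were seen.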

Additional observations from a re-analysis of the deposited data

How the results depend on the processing

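Rxra, Pparg, Ppargc1b and Srebf1 kept their direction and their call in all 17 alternatives, as did Srebf2 in all but 1. With the CD8 T cell genes held equal, Srebf2 (log2 fold change 0.51) and Nr1h3 (0.96) turned positive, no regulator was called lower (0, with 9 higher), and 11214 of all tested genes were called higher and 441 lower. Ppard and Rxrb each lost the call in 2 of 17 alternatives and Nr1h2 gained it in 5. The other settings left 5 to 7 regulators higher and 1 lower, with 5 higher under quantile scaling, 5 to 7 when single libraries were left out, and 6 with edgeR and with DESeq2. Over left-out libraries the ratio differences ran from 1.57 to 1.65 for Rxra to Rxrb, 0.87 to 1.07 for Pparg to Ppard, 0.80 to 0.96 for Srebf1 to Srebf2 and -0.28 to -0.24 for Nr1h3 to Nr1h2. Deviations of same-numbered libraries correlated at 0.04, 0.06 and 0.01, so no pairing by number was seen. The labels do not say how libraries were numbered, and these values cannot exclude a pairing. With the replicate block 7 regulators were higher and 1 lower, against 6 and 1 without it, since Nr1h2 passed (limma adjusted p = 0.0417), and 4010 of all tested genes were higher and 3697 lower. Ppargc1a, at 1 to 7 reads per library, and Ch25h were too shallow for a comparison, and the cause of these shifts was not tested.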
